A study of Mus musculus with 8 samples.

Results

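The genes described here encode the sarcomere and its Z-disc with the myosins left out: 37 genes for the thin filament, its length regulators, titin and the M-band, the Z-disc and intercalated disc, muscle chaperones and muscle ubiquitin ligases. They were chosen by symbol for these roles and matched to Ensembl identifiers, and all 37 were among the 49315 genes listed in each count table. RNA sequencing was performed on whole mouse hearts at embryonic day 9.5, with 4 libraries from wild-type embryos and 4 from Tbx20EH1Mut embryos, and 3 hearts were pooled for each library. Tbx20EH1Mut is a germline change of 2 adjacent residues in the EH1 domain of Tbx20, a T-box transcription factor, through which the protein binds TLE corepressors, and the line was bred to C57BL/6J mice. The Tbx20EH1Mut embryos were homozygous for this allele, which is present in every cell, while the wild-type embryos carry no engineered allele, and neither group was treated. Gene counts carry no bases of the allele, so the genotype labels were not checked against it. The study calls the 4 libraries of a genotype biological replicates, and the libraries held 36250675 to 38357025 counts in Tbx20EH1Mut hearts and 33359322 to 49523086 in wild-type hearts.

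The sarcomere is the contractile unit of striated muscle. Actin thin filaments are anchored at the Z-disc, interdigitate with myosin thick filaments, and carry tropomyosin and the troponin complex, which makes contraction depend on calcium. Titin spans from the Z-disc to the M-band, and leiomodins and tropomodulins act at the pointed end of the thin filament, where they set its length. Cardiomyocytes are the main cells of the early heart tube to build these structures, and the tube beats while they are being built.

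All 37 genes passed the filter on low counts, which left 17163 genes to test. Positions below span each gene in GRCm38 as the tables list its exons. By the quasi-likelihood test of edgeR, adjusted by Benjamini-Hochberg over those genes, 10 of the 37 (27.0%) differed between genotypes at an adjusted p of at most 0.05, against 29.3% of all genes tested. Of the 10, 3 were higher in Tbx20EH1Mut hearts (Ankrd1, Fhl2 and Lmod3) and 7 were lower (Tmod1, Xirp1, Smyd1, Lmod2, Unc45b, Actn2 and Hspb7), against 14.0% of all genes higher and 15.3% lower. With a log2 fold change of 0.5 or more in either direction required as well, 9 of the 37 remained, since Hspb7 was at -0.48 ± 0.12, and 24.6% of all genes tested did so. The share of members past the test was thus close to the share of all genes. The log2 fold change was below 0 in 27 of the 37 members and in 49.7% of all genes tested. The median was -0.19 over the members and 0.0048 over all genes, and the median size of the change without its sign was 0.36 over the members and 0.43 over all genes. Single libraries moved the members' median, which was -0.051 without Tbx20EH1Mut replicate 1, -0.10 without Tbx20EH1Mut replicate 2 and -0.36 without Tbx20EH1Mut replicate 3, and it was -0.039 in the fit with a foregut covariate described further on. The values of the 2 genotypes did not overlap for 8 of the 37, of which 3 were higher and 5 lower in Tbx20EH1Mut hearts, and for 30.5% of all genes tested. In these whole hearts, fewer cells of a type and less RNA per cell cannot be told apart.

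**Figure D1:**
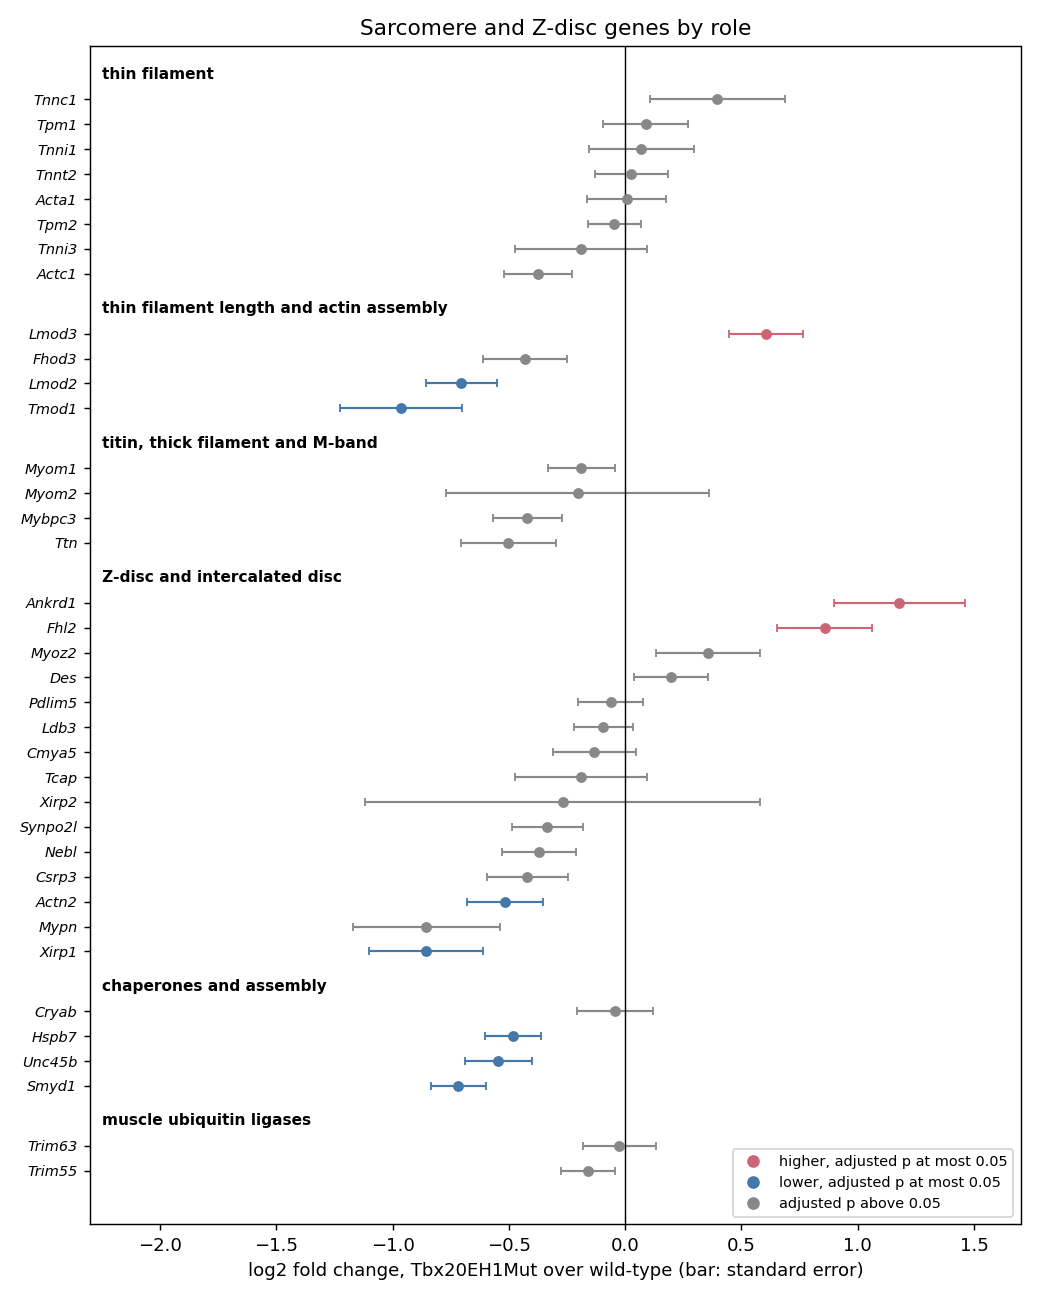
Log2 fold change of each of the 37 genes, Tbx20EH1Mut over wild-type (horizontal axis), grouped by role, with bars for the standard error and colour for the genes past an adjusted p of 0.05. The 8 thin filament genes lie between -0.37 and 0.40 with none coloured, and 3 of the 4 genes of thin filament length and actin assembly and 3 of the 4 chaperone and assembly genes are coloured.

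Some members share a sequence element at the promoter. The CArG box, the site bound by serum response factor in muscle genes, was looked for with the MEF2 site, the TATA box TATAAA and the T-box element AGGTG on both strands of the 250 bases before each RefSeq start in GRCm38.p6, where 30 of the 37 members had a promoter sequence. A CArG box was found in 6 of the 30 members (20%) and in 1.62% of the 27025 genes with a promoter sequence. The MEF2 site was found in 6 of the 30 (Fhl2, Mybpc3, Myoz2, Synpo2l, Ttn and Xirp2) and in 3.42% of genes, TATAAA in 6 of the 30 and in 14.3% of genes, and AGGTG in 19 of the 30 (63.3%) and in 49.4% of genes. In Fhl2 the MEF2 site and TATAAA overlap. The longer element AGGTGTGA, which contains AGGTG, was found in Tnni3 alone among the 30 and in 1.30% of genes. The stretches around the 7 CArG boxes and the Tnni3 element are shown because they hold Fhl2, a gene that was higher in Tbx20EH1Mut hearts, beside genes of the thin filament, Z-disc and M-band that did not pass the test. Each is given 5′ to 3′ on the strand of its gene with the element in capitals. Flanks are shorter where an annotated exon or the start itself lies within reach. Even so, the first Fhl2 stretch and the Tnni3 stretch touch an annotated exon.
Fhl2 (chr1:43196838-43196867, strand -, CArG box from base -96 to -87 of the start): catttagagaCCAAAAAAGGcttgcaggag
Fhl2 (chr1:43163962-43164017, strand -, CArG box from base -31 to -22 of the start): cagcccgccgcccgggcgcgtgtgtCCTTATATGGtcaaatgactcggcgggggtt
Nebl (chr2:17462984-17463043, strand -, CArG box from base -162 to -153 of the start): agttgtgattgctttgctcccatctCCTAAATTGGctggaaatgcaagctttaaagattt
Actc1 (chr2:114052888-114052947, strand -, CArG box from base -47 to -38 of the start): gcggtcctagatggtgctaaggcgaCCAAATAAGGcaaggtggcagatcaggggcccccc
Tnni3 (chr7:4522712-4522739, strand -, long T-box element from base -201 to -194 of the start): tgagggacctAGGTGTGAggacagaagg
Acta1 (chr8:123894814-123894873, strand -, CArG box from base -73 to -64 of the start): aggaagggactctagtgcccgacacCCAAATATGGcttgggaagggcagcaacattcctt
Ldb3 (chr14:34588697-34588726, strand -, CArG box from base -35 to -26 of the start): gggttacagtCCATTTATGGgcgcagcaag
Myom1 (chr17:71019433-71019492, strand +, CArG box from base -99 to -90 of the start): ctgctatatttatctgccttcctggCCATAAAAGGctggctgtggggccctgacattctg
These matches are descriptions of letters in the window, and no binding was measured here. Of the 6 members with a CArG box, Fhl2 passed the test, at 0.86 ± 0.20, and Actc1, Acta1, Nebl, Ldb3 and Myom1 had log2 fold changes of -0.37, 0.0065, -0.37, -0.094 and -0.19.

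The 8 thin filament genes comprise the troponins, tropomyosins and actins. None of them passed the test (edgeR, quasi-likelihood), with log2 fold changes from -0.37 to 0.40, adjusted p from 0.0768 to 0.980 and a median of 0.017. That median lay below 0 without Tbx20EH1Mut replicate 3, where Tnnt2, Tnni1 and Acta1 were at -0.034, -0.10 and -0.15 and Tpm2 at 0.023. With all libraries, the count at an unadjusted p under 0.05 was 1 (Actc1), by DESeq2 it was 1 (Actc1) and by limma-voom 0. The shares of all genes called were 29.3% by edgeR, 36.8% by DESeq2 and 30.4% by limma-voom. Those shares use the adjusted p. For counts at an unadjusted p under 0.05, here and in the other roles, no share of all genes is given. Actc1, cardiac alpha-actin and the most abundant member per exon length, was at 10564, 9433, 11942 and 12563 in wild-type replicates 1 to 4 and at 7283, 9494, 8378 and 9174 in Tbx20EH1Mut replicates 1 to 4, all in CPM (library-scaled counts, with TMM factors). Wild-type replicate 2 was just below Tbx20EH1Mut replicate 2, which was the sole overlap, and the log2 fold change was -0.37 ± 0.15 (SE) with an adjusted p of 0.0768 by edgeR. The test was passed with library size alone, with DESeq2 and with an offset on gene length, at -0.44, -0.38 and -0.56. Acta1, skeletal alpha-actin, which the embryonic heart also expresses, was at 878, 884, 891 and 886 CPM in the wild-type libraries and 689.7, 728, 1169.5 and 967 CPM in the Tbx20EH1Mut libraries. Its wild-type values were nearly equal, whereas Tbx20EH1Mut values fell on both sides of them. The 2 actins are close to identical in coding sequence, so reads may have been split between them by the counting, and their separate values carry that uncertainty.

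Tnni1, the slow skeletal troponin I that comes first in heart development, was at 2688, 1383, 2105 and 2004 in wild-type replicates 1 to 4 and at 1620.1, 1922, 2877 and 2166 CPM in Tbx20EH1Mut replicates 1 to 4. Tnni3, the cardiac troponin I that later replaces it, was at 817, 312, 601 and 529 CPM in wild-type and 353, 428, 686 and 513 CPM in Tbx20EH1Mut libraries. Both ranges overlapped between genotypes, and in both genes wild-type replicate 1 was the highest and wild-type replicate 2 the lowest wild-type library. Tpm1, the main cardiac tropomyosin, was at 4609, 2951, 4429.8 and 4187 CPM in wild-type and 3336, 4067, 5036 and 4772 CPM in Tbx20EH1Mut libraries. Tpm2, beta-tropomyosin, was at 208, 199, 226 and 235 CPM in wild-type and 206, 214, 182 and 238 CPM in Tbx20EH1Mut libraries. The genotypes overlapped for both tropomyosins. The log2 fold changes were 0.070 ± 0.23 for Tnni1, -0.19 ± 0.28 for Tnni3, 0.089 ± 0.18 for Tpm1 and -0.046 ± 0.12 for Tpm2, each smaller in size than its standard error. Troponin T (Tnnt2) had a log2 fold change of 0.027 ± 0.16 and troponin C (Tnnc1), the calcium-binding subunit, one of 0.40 ± 0.29. Tnnc1 was at 0.16 without Tbx20EH1Mut replicate 3, 0.23 without wild-type replicate 2 and 0.65 without wild-type replicate 1, and passed the test in none of these fits. The thin filament values also depended on the foregut marker level described below: with it as a covariate, Tnnc1, Tnni3, Tnni1 and Tpm1 passed the test at 1.46, 0.96, 0.88 and 0.69, so that Tnni3 changed sign. Without wild-type replicate 2 and Tbx20EH1Mut replicate 3, a setting chosen after the data were seen, Tnni3 instead passed the test as lower, at -0.59 (adjusted p = 0.0447, edgeR).

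**Figure D2:**
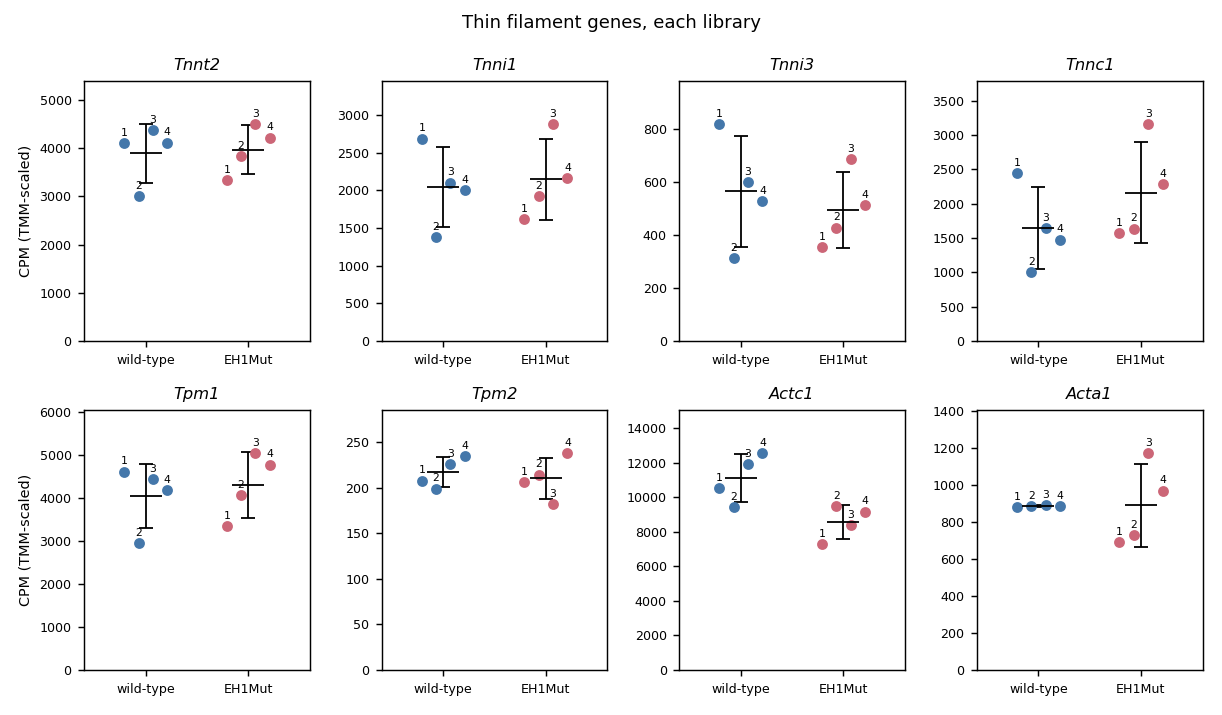
CPM (vertical axis, from 0) of the 8 thin filament genes in each library, numbered by replicate, with the mean and SD of each genotype. Genotypes overlap in every panel, and wild-type replicate 2 is the lowest of all 8 libraries for Tnnt2, Tnni1, Tnni3, Tnnc1 and Tpm1.

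Among the 4 genes of thin filament length and actin assembly, 3 passed the test, against 29.3% of all genes, and their directions differed. Lmod2, the cardiac leiomodin that elongates thin filaments at the pointed end (ENSMUSG00000029683, chr6:24597762-24605414, strand +), was at 58.7, 53.2, 59.5 and 57.9 in wild-type replicates 1 to 4 and at 24.3, 37.6, 39.0 and 39.8 CPM in Tbx20EH1Mut replicates 1 to 4. Every Tbx20EH1Mut library was below every wild-type library, with Tbx20EH1Mut replicate 1 set apart as the lowest. Means were 57.3 ± 2.80 against 35.2 ± 7.33 CPM (SD, n = 4), at -0.70 ± 0.15 on the log2 scale (adjusted p = 0.00886, edgeR). With the foregut covariate, Lmod2 was at -0.46 with an adjusted p of 0.158. Lmod3, the leiomodin known chiefly from skeletal muscle (ENSMUSG00000044086, chr6:97238534-97252759, strand -), was at 35.3, 36.0, 37.3 and 39.5 CPM in wild-type and 47.4, 46.0, 76.2 and 55.6 CPM in Tbx20EH1Mut libraries. Here every Tbx20EH1Mut library was above every wild-type library, and Tbx20EH1Mut replicate 3 was the highest. Means were 37.03 ± 1.86 against 56.3 ± 13.9 CPM (log2 fold change 0.60 ± 0.16, adjusted p = 0.0190, edgeR). Without wild-type replicate 3 or Tbx20EH1Mut replicate 4, that adjusted p was between 0.0501 and 0.0542, and with an offset on gene length it was 0.0639.

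Tmod1, tropomodulin 1, which caps the pointed end (ENSMUSG00000028328, chr4:46038935-46116032, strand +), was at 77.1, 192, 152 and 163 CPM in wild-type and 75.9, 97.7, 56.1 and 69.7 CPM in Tbx20EH1Mut libraries. Wild-type replicate 1 lay among the Tbx20EH1Mut libraries and the other 3 wild-type libraries lay above all of them. The log2 fold change was -0.96 ± 0.26 with an adjusted p of 0.0218 by edgeR, and without any 1 of wild-type replicates 2, 3 and 4 or Tbx20EH1Mut replicates 1 and 4 the adjusted p was between 0.0501 and 0.0653. Of the exon bases of Tmod1, 32.6% also belong to exons of Tstd2 on the opposite strand, and whether the counting used strand is not given in the sources used here; over the 8 libraries, Tmod1 had 38102 counts and Tstd2 had 3778. Fhod3, a formin that builds actin filaments in cardiomyocytes, had a log2 fold change of -0.43 ± 0.18 (adjusted p = 0.0945, edgeR). It was -0.26 without wild-type replicate 2, and Fhod3 passed edgeR's test at -0.59 without wild-type replicate 1 (adjusted p = 0.00921) and at -0.88 with the foregut covariate (adjusted p = 0.0167).

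The leiomodins were compared directly as a ratio within each library. Counts per exon base of Lmod3 over those of Lmod2 gave 0.537, 0.603, 0.560 and 0.609 in wild-type replicates 1 to 4 and 1.74, 1.09, 1.74 and 1.25 in Tbx20EH1Mut replicates 1 to 4. Lmod2 was thus the more abundant leiomodin in 4 of 4 wild-type libraries and Lmod3 in 4 of 4 Tbx20EH1Mut libraries. The mean log2 ratio went from -0.80 ± 0.087 to 0.51 ± 0.34 (SD, n = 4), a difference of 1.31. An exact two-sided permutation test over 70 arrangements gave p = 0.0286, the smallest the design allows, and adjusted over the 6 pairs tested it was 0.171. A single pair at that smallest p could not have reached 0.05 after this adjustment, so the test leaves this ratio undecided. Leaving out each library in turn moved the difference between 1.21 and 1.43.

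The other 5 ratios between paralogous members overlapped between genotypes. Exact two-sided permutation tests with the same adjustment gave a difference in mean log2 ratio of -0.23 for Tnni3 over Tnni1 (adjusted p = 0.229), 0.35 for Acta1 over Actc1 (adjusted p = 0.229), -0.14 for Tpm2 over Tpm1 (adjusted p = 0.686), 0.13 for Trim63 over Trim55 (adjusted p = 0.686) and -0.091 for Myom2 over Myom1 (adjusted p = 0.83). With groups of 4 these tests leave differences of such sizes undecided. The difference for Acta1 over Actc1 was raised by Tbx20EH1Mut replicate 3. Its ratio was 0.147, against 0.0808 to 0.111 in the other Tbx20EH1Mut libraries. Wild-type Tnni3 stood at 0.468 of Tnni1 per exon base as a geometric mean, and Acta1 at 0.0843 of Actc1. Xirp2 had no count in Tbx20EH1Mut replicate 1, so its ratio to Xirp1 was formed only in a separate run with 0.5 added to each count of every pair, where the difference was -0.48 (adjusted p = 0.857, exact permutation test, adjusted over the 7 pairs of that run).

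**Figure D3:**
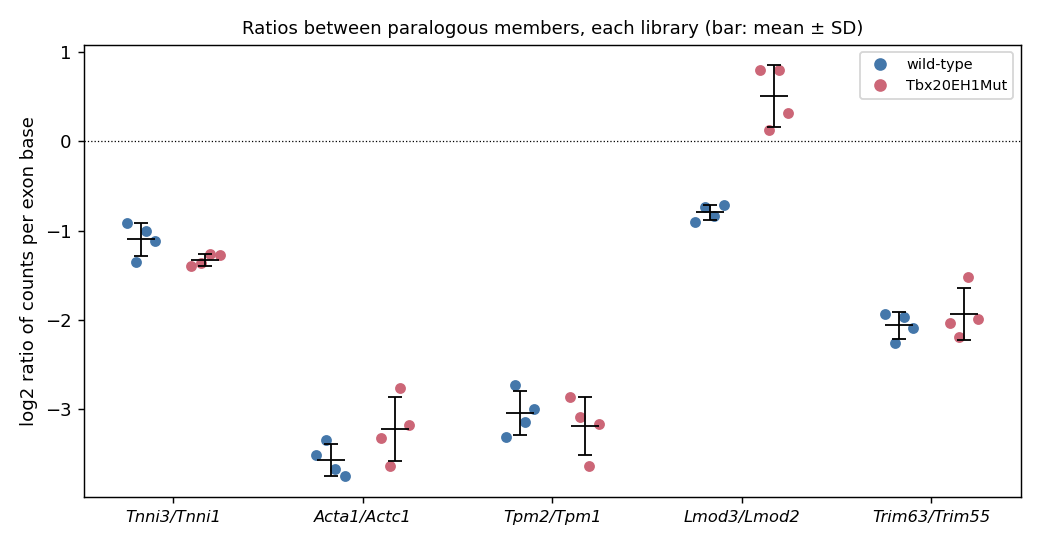
Log2 ratio of counts per exon base for 5 pairs of paralogous members (vertical axis) in each library, with the mean and SD of each genotype and a dotted line at equal levels. The Lmod3 to Lmod2 ratio lies below the line in all 4 wild-type libraries and above it in all 4 Tbx20EH1Mut libraries, and the other 4 pairs overlap.

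Of the 4 genes for titin, the thick filament and the M-band, 0 passed edgeR's test, 2 had an unadjusted p under 0.05 and passed DESeq2's test (Ttn and Mybpc3), and 0 passed limma-voom's, against 29.3%, 36.8% and 30.4% of all genes by edgeR, DESeq2 and limma-voom. Mybpc3, cardiac myosin binding protein C, was at 1368, 2012, 1758 and 1742 CPM in wild-type and 1128, 1218, 1477 and 1316 CPM in Tbx20EH1Mut libraries. The Tbx20EH1Mut libraries overlapped the wild-type range only through wild-type replicate 1, and the log2 fold change of -0.42 ± 0.15 had an adjusted p of 0.0553 by edgeR, just outside the threshold. Without wild-type replicate 1 or Tbx20EH1Mut replicate 3, the log2 fold change of Mybpc3 was -0.52 or -0.48 and passed it. Ttn, titin, whose transcript at 116825 exon bases is the longest of the members, had a log2 fold change of -0.50 ± 0.20 (adjusted p = 0.0873, edgeR). Without wild-type replicate 2 it was -0.26, and Ttn passed edgeR's test with an offset on gene length, at -0.62 (adjusted p = 0.00446), and with the foregut covariate described further on, at -1.03 (adjusted p = 0.00972). Myom1, the main M-band myomesin of the embryonic heart, was at 455, 702, 573 and 546 CPM in wild-type and 448, 521, 483 and 546 CPM in Tbx20EH1Mut libraries, with overlapping ranges. The log2 fold change of Myom1 was -0.19 ± 0.15, or -0.059 without wild-type replicate 2 and -0.29 without wild-type replicate 1. Myom2, a myomesin of mature and fast muscle, was at 0.789, 0.346, 0.219 and 0.458 CPM in wild-type and 0.388, 0.212, 0.750 and 0.212 CPM in Tbx20EH1Mut libraries, which is 8 to 26 counts a library. At this depth no difference in Myom2 was detectable.

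Of the 15 Z-disc and intercalated disc genes, 4 passed the test, against 29.3% of all genes, 2 in each direction, and all 4 exceeded a log2 fold change of 0.5 in size. By DESeq2 and by limma-voom the count was 5, with Mypn added, against 36.8% and 30.4% of all genes. Ankrd1, cardiac ankyrin repeat protein, which binds titin in the I-band and also enters the nucleus (ENSMUSG00000024803, chr19:36111965-36119844, strand -), was at 1411, 874, 998 and 981 in wild-type replicates 1 to 4 and at 1536, 1760.0, 3831 and 2523 CPM in Tbx20EH1Mut replicates 1 to 4. The genotypes did not overlap, but wild-type replicate 1 came close to the lowest Tbx20EH1Mut library, and Tbx20EH1Mut replicate 3 was well above the other three. Means were 1066 ± 236 against 2413 ± 1036 CPM, at 1.18 ± 0.28 on the log2 scale (adjusted p = 0.0126, edgeR). Fhl2, a LIM domain protein of the Z-disc (ENSMUSG00000008136, chr1:43123074-43196984, strand -), was at 167, 104, 157 and 146 CPM in wild-type and 187, 232, 346 and 275 CPM in Tbx20EH1Mut libraries. Again the genotypes did not overlap and Tbx20EH1Mut replicate 3 was the highest. Means were 144 ± 27.6 against 260.1 ± 67.5 CPM (log2 fold change 0.86 ± 0.20, adjusted p = 0.0127, edgeR).

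Xirp1, an actin-binding protein of the intercalated disc (ENSMUSG00000079243, chr9:120013755-120023598, strand -), was at 105, 260.3, 138 and 131 CPM in wild-type and 83.1, 86.6, 88.0 and 92.7 CPM in Tbx20EH1Mut libraries. The Tbx20EH1Mut libraries were close together and below every wild-type library, and wild-type replicate 2 stood far above the other wild-type libraries. The log2 fold change was -0.86 ± 0.24 (adjusted p = 0.0263, edgeR), and without wild-type replicate 2 it was -0.50. Without Tbx20EH1Mut replicate 1, 2 or 4, its adjusted p was between 0.0534 and 0.0631. Actn2, the alpha-actinin that crosslinks thin filaments in the Z-disc (ENSMUSG00000052374, chr13:12269426-12340760, strand -), was at 498, 871, 701 and 772 CPM in wild-type and 481, 529.6, 475 and 501 CPM in Tbx20EH1Mut libraries. Wild-type replicate 1 lay among the Tbx20EH1Mut libraries and the rest of the wild-type libraries lay above them. The log2 fold change was -0.52 ± 0.16 (adjusted p = 0.0387, edgeR), and leaving out any 1 library other than wild-type replicate 1 put the adjusted p between 0.0598 and 0.106. With upper-quartile scaling Actn2 was at -0.42 (adjusted p = 0.0617, edgeR), and with the replicate number as a block at -0.49 (adjusted p = 0.0595).

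The other 11 Z-disc and intercalated disc genes did not pass the test. Xirp2, the paralog of Xirp1, was near the limit of detection, at 0.182, 0.407, 0.299 and 0.393 CPM in wild-type and 0, 0.133, 0.750 and 0.212 CPM in Tbx20EH1Mut libraries, or 96 counts over the 8 libraries, and no difference was detectable at this depth. Mypn (myopalladin, which links alpha-actinin and nebulin) had the lowest value of the 11, at -0.85 ± 0.32 (adjusted p = 0.0653, edgeR), from 31 to 125 counts a library, and it passed without Tbx20EH1Mut replicate 3 (-1.17, adjusted p = 0.0132, edgeR). Mypn also passed in 4 of 10 other settings with all libraries: library size alone (-0.94, adjusted p = 0.0377), DESeq2 (-0.86, adjusted p = 0.0266), limma-voom (-0.94, adjusted p = 0.0340) and edgeR with at least 10 counts in every library (-0.85, adjusted p = 0.0481). Csrp3 (muscle LIM protein), Nebl (nebulette) and Synpo2l followed at -0.42 ± 0.17, -0.37 ± 0.16 and -0.33 ± 0.15. Tcap (telethonin), Cmya5 (myospryn), Ldb3 (cypher) and Pdlim5 were at -0.19 ± 0.28, -0.13 ± 0.18, -0.094 ± 0.13 and -0.061 ± 0.14, and Xirp2 was at -0.27 ± 0.85. Des (desmin, the intermediate filament around the Z-disc) and Myoz2 (calsarcin-1) were above 0, at 0.20 ± 0.16 and 0.36 ± 0.22. Without wild-type replicate 2 Synpo2l was at -0.20 and Cmya5 at -0.030, and without Tbx20EH1Mut replicate 3 Myoz2 was at 0.18, Des at 0.065 and Cmya5 at -0.25.

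Of the 4 chaperone and assembly genes, 3 passed the test and all 3 were lower in Tbx20EH1Mut hearts, against 15.3% of all genes called lower. Smyd1, a muscle methyltransferase that acts with myosin chaperones (ENSMUSG00000055027, chr6:71213940-71322233, strand -), was at 486, 578, 534 and 528 CPM in wild-type and 276, 322, 355 and 341 CPM in Tbx20EH1Mut libraries. The genotypes were well separated, with the highest Tbx20EH1Mut library below the lowest wild-type library. Means were 532 ± 37.6 against 323 ± 34.5 CPM (log2 fold change -0.72 ± 0.12), and the adjusted p of 0.00245 by edgeR was the lowest among the members. Unc45b, the muscle chaperone that folds the myosin head (ENSMUSG00000018845, chr11:82910550-82943403, strand +), was at 415, 577, 548 and 502 CPM in wild-type and 285, 366, 386 and 362 CPM in Tbx20EH1Mut libraries. Its genotypes did not overlap, and the log2 fold change was -0.54 ± 0.14 (adjusted p = 0.0191, edgeR). Without wild-type replicate 3 or 4 or Tbx20EH1Mut replicate 4, that adjusted p was between 0.0502 and 0.0598. Hspb7, a cardiac small heat shock protein of the thin filament, fell short of the fold change that would have named it and is given here after its values were seen: its libraries were at 547, 517, 525 and 524 CPM in wild-type and 317, 371, 436 and 389 CPM in Tbx20EH1Mut hearts. They did not overlap, and the adjusted p was 0.0149 by edgeR. With the foregut covariate, Unc45b and Hspb7 had adjusted p of 0.0690 and 0.188 by edgeR and Smyd1 alone of the 3 kept its call. Cryab, alpha B-crystallin and the most abundant chaperone of the list per exon length, was at 436, 309, 376 and 349 CPM in wild-type and 267, 347, 427 and 384 CPM in Tbx20EH1Mut libraries, with overlapping ranges and a log2 fold change of -0.044 ± 0.16. Of its exon bases, 17.0% are shared with Hspb2 on the opposite strand.

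**Figure D4:**
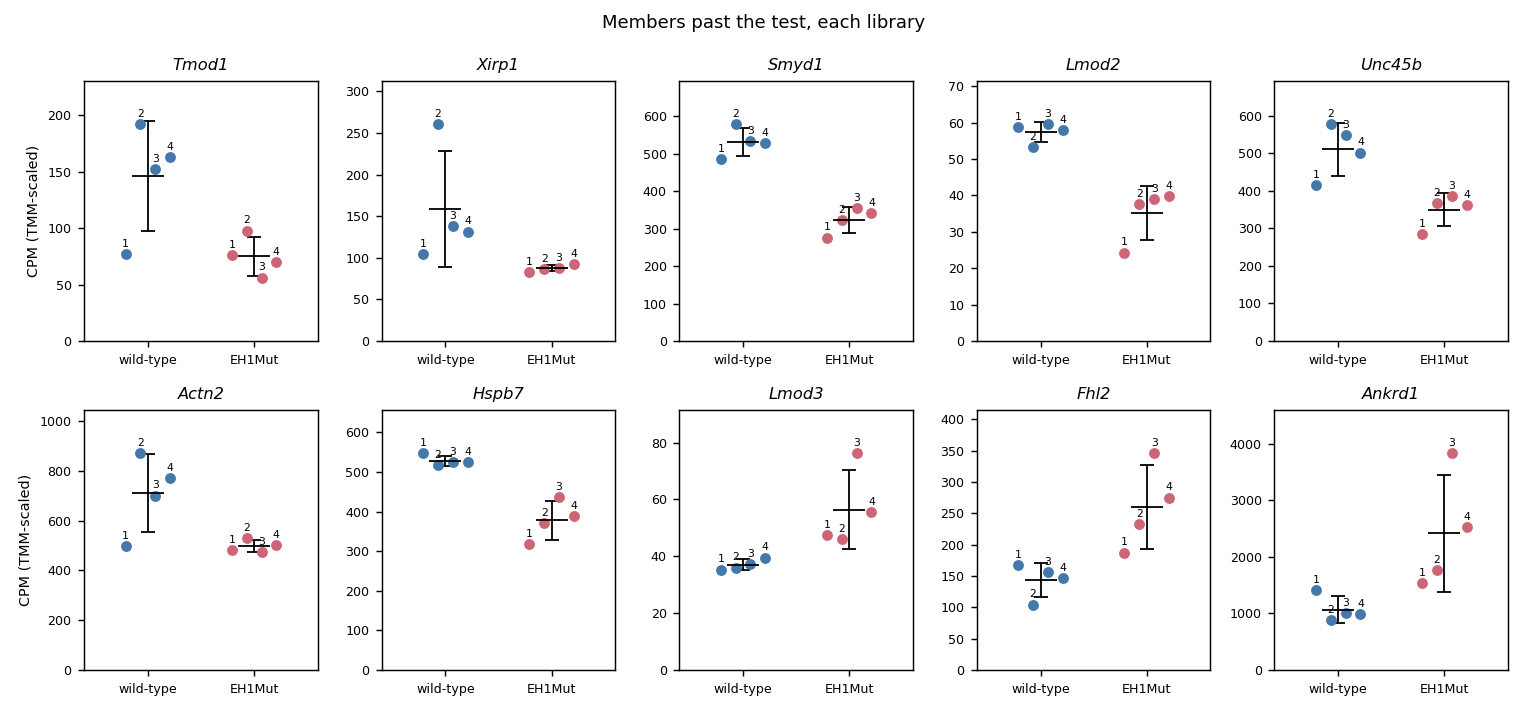
CPM (vertical axis, from 0) of the 10 members past an adjusted p of 0.05 in each library, numbered by replicate, with the mean and SD of each genotype (EH1Mut stands for Tbx20EH1Mut). Genotypes are separate in 8 panels and overlap for Tmod1 and Actn2 through wild-type replicate 1.

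Of the 2 muscle ubiquitin ligases, 0 passed the test by edgeR, DESeq2 or limma-voom, which called 29.3%, 36.8% and 30.4% of all genes, and 0 had an unadjusted p under 0.05. Trim63 (MuRF1) was at 74.8, 59.4, 80.0 and 77.6 CPM in wild-type and 57.0, 65.7, 91.7 and 72.6 CPM in Tbx20EH1Mut libraries, and its log2 fold change was -0.024 ± 0.16. Trim55 (MuRF2) was at 266, 266, 292 and 309 CPM in wild-type and 219, 280.0, 246 and 269 CPM in Tbx20EH1Mut libraries, and its log2 fold change was -0.16 ± 0.12, or -0.089 without Tbx20EH1Mut replicate 1. Both sets of values overlapped between genotypes.

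Levels of different members were compared per exon length. In wild-type hearts, Actc1 stood first at 6876 ± 868 CPM per kb and Tnnc1 next at 1579 ± 574 (SD, n = 4). Tpm1, Ankrd1, Acta1, Tnni1 and Tnnt2 followed between 503 and 624 CPM per kb, and those neighbours did not differ beyond their spread. Myom2 at 0.0512 and Xirp2 at 0.0267 CPM per kb closed the order. In TPM, computed here from counts and exon lengths, the 37 members made up 3.61 ± 0.183% of all TPM in wild-type libraries (3.35 to 3.77%) and 2.90 ± 0.258% in Tbx20EH1Mut libraries (2.52 to 3.09%). This difference depended on the scale, since summed TMM-scaled CPM were 36079 ± 2871 in wild-type and 33812 ± 5164 in Tbx20EH1Mut libraries and overlapped, and the TPM scale lowers the median of all genes by 0.24 on the log2 scale against the CPM.

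The make-up of that sum is given as a description without a test. Actc1 took 48.5 ± 3.71% of the members' TPM in wild-type and 39.7 ± 5.63% in Tbx20EH1Mut libraries, with overlapping ranges. Ankrd1 took 4.25 ± 0.724% in wild-type and 9.79 ± 2.61% in Tbx20EH1Mut libraries, with no overlap. The share of Tnnc1 was 11.0 ± 3.22% in wild-type and 15.1 ± 2.78% in Tbx20EH1Mut libraries, which overlap, and that of Tpm1 was 4.36 ± 0.388% and 4.89 ± 0.151%, which do not.

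**Figure D5:**
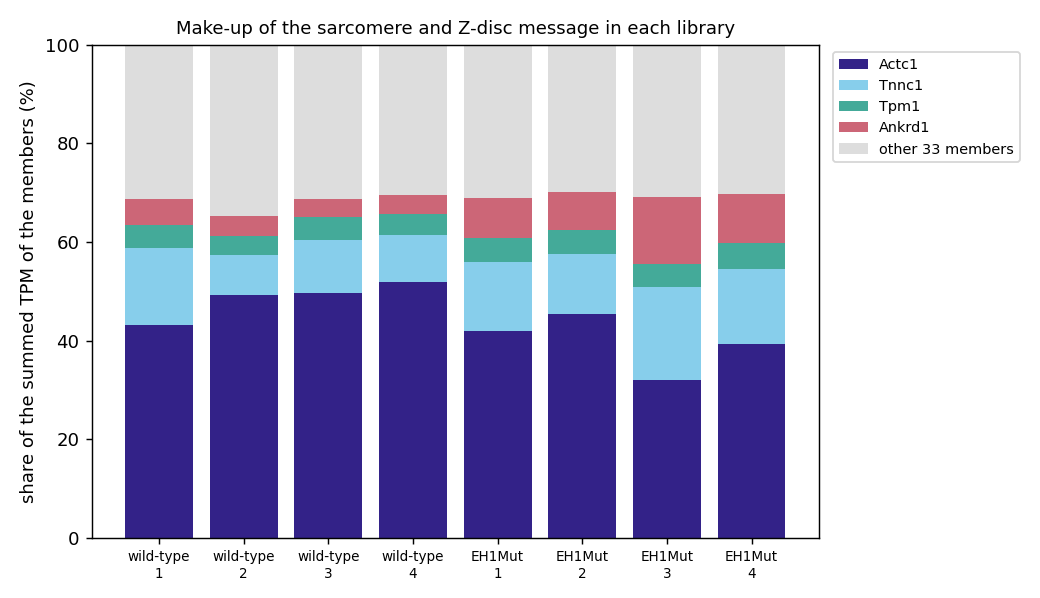
Share of the summed TPM of the 37 members (vertical axis, percent) taken by Actc1, Tnnc1, Tpm1, Ankrd1 and the other 33 members in each library (EH1Mut stands for Tbx20EH1Mut). The Ankrd1 share lies between 7.70 and 13.4% in Tbx20EH1Mut libraries and between 3.72 and 5.29% in wild-type libraries.

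The members' values depended on the library as well as the genotype. Wild-type replicate 2 was the highest wild-type library for 15 members and the lowest for 18 of 37, and wild-type replicate 1 was the highest for 12 and the lowest for 16. Among Tbx20EH1Mut libraries, replicate 3 was the highest for 26 members and replicate 1 the lowest for 28. Over all genes, a measure of transcript length (the median log2 deviation of genes with at least 6000 exon bases minus that of genes with at most 2000) was 0.58 in wild-type replicate 2, -0.15 to 0.12 in the other wild-type libraries, -0.30 in Tbx20EH1Mut replicate 3 and -0.18 to -0.085 in the other Tbx20EH1Mut libraries. The 3 members called higher have 1765 to 2215 exon bases, the 7 called lower have 1976 to 5839, and those not called have 948 to 116825. Without wild-type replicate 2 and Tbx20EH1Mut replicate 3, a setting chosen after the data were seen, 13 of the 36 members tested passed, 3 higher and 10 lower, against 26.3% of all genes tested in that fit. Ankrd1, Fhl2 and Lmod3 were then at 0.78, 0.56 and 0.41, Smyd1 and Lmod2 at -0.72 and -0.79, and Tmod1 and Actn2 at -0.69 and -0.38 with adjusted p of 0.0763 and 0.102 by edgeR.

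Markers of the cells that a dissected heart can hold were read in the same fit. The 11 cardiomyocyte markers outside the list were all present, with summed levels of 22628 to 25147 CPM in wild-type and 22131 to 33865 CPM in Tbx20EH1Mut libraries, and 3 of them were higher (Myl3, Myl2 and Pln) and 3 lower (Myh6, Slc8a1 and Atp2a2). Of 10 skeletal muscle and somite markers, 2 had enough counts to test, Tnnt3 and Actn3, and both were lower, with the list summing to 17.0 to 26.3 and 4.97 to 7.17 CPM, while Myf6 was at 0 in all 8 libraries and Myod1 had 1 library above 0. Foregut and epithelial markers summed to 189.6 to 274 CPM in wild-type and 651 to 844 CPM in Tbx20EH1Mut libraries, with 5 of 9 called higher and none lower. Most of that sum came from the keratins Krt8 (means of 146 and 445 CPM) and Krt18 (67.4 and 223 CPM), which with Shh did not overlap between genotypes, whereas Epcam, Cdh1, Foxa1, Foxa2, Nkx2-1 and Sox2 had means of at most 5.16 CPM in wild-type and 45.2 CPM in Tbx20EH1Mut libraries and overlapped. Endothelial markers were called higher in 3 of 6 cases and summed to 511 to 654 and 666 to 733 CPM, all 6 erythroid markers were lower (1851 to 4933 and 351 to 1096 CPM), and 1 of 6 smooth muscle markers, Smtn, was lower (5121 to 6348 and 5837 to 8859.7 CPM for the list). Of the proepicardial markers 1 of 4, Wt1, was higher, and the 2 neural crest markers with enough counts to test were not called. The part of these other cells in the members' values was not tested. In 1 further fit, the covariate was the mean of the log2 levels of the 9 foregut markers, with the keratins counted like the rest. Epcam was at 15.3 CPM in wild-type replicate 2, its highest wild-type library, and 10.7 CPM in Tbx20EH1Mut replicate 3, its lowest Tbx20EH1Mut library. Those 2 libraries were also the extremes of the transcript length measure. Foregut cells, genotype and library therefore cannot be told apart in this fit. With this covariate, 14 of the 37 members passed, 8 higher and 6 lower, against 33.1% of all genes tested in that fit. In that fit 7 of the 10 called members kept their calls: Ankrd1 at 1.90, Fhl2 at 1.57 and Lmod3 at 0.87 were higher, and Smyd1 at -0.73, Actn2 at -0.87, Xirp1 at -1.49 and Tmod1 at -1.60 were lower. The 7 that gained a call were Tnnc1, Tnni3, Tnni1, Tpm1 and Ttn, given above, Fhod3 at -0.88 and Myoz2 at 0.95. The other 3, Lmod2, Hspb7 and Unc45b, missed the threshold, at -0.46, -0.32 and -0.58.

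Other genes of the same structures were read from a list of 72, of which 66 could be tested. Of these, 19 (28.8%) passed the test, 4 higher and 15 lower, beside 14.0% of all genes higher and 15.3% lower, and their median log2 fold change was -0.29. Mybpc1, the slow skeletal myosin binding protein C, was at 5.77, 4.15, 2.41 and 4.67 CPM in wild-type and 17.1, 20.2, 12.6 and 18.9 CPM in Tbx20EH1Mut libraries, which do not overlap (2.02 ± 0.26 on the log2 scale, adjusted p = 0.000750, edgeR). Pdlim4 and Tnnt1, the slow skeletal troponin T, were the other named rises, at 1.46 ± 0.28 (adjusted p = 0.00491, edgeR) and 0.73 ± 0.23 (adjusted p = 0.0355, edgeR). Vcl, vinculin, had the lowest value among the falls at -2.40 ± 0.71 (adjusted p = 0.0307, edgeR), and wild-type replicate 1 at 8.56 CPM lay within the Tbx20EH1Mut range of 4.13 to 23.2 CPM. The fast skeletal troponins Tnni2 and Tnnt3 were lower in every Tbx20EH1Mut library than in every wild-type library. Tnni2 was at 48.1, 15.8, 27.0 and 44.1 CPM in wild-type and 5.46, 6.19, 10.4 and 8.64 CPM in Tbx20EH1Mut libraries, a log2 fold change of -2.14 ± 0.35 (adjusted p = 0.00222, edgeR). Tnnt3 was at 20.9, 13.6, 18.8 and 20.9 CPM in wild-type and 4.71, 4.73, 4.19 and 5.38 CPM in Tbx20EH1Mut libraries, a log2 fold change of -1.97 ± 0.17 (adjusted p = 9.93e-05, edgeR).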

How the data were processed

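The authors deposited 1 table of raw counts per gene for each of 8 libraries, whole numbers that are not normalized, from poly-A selected RNA sequenced as read pairs. The submitters' processing notes name Trimmomatic 0.36, STAR 2.5.2b and GRCm38 (mm10). The counting tool and strand setting are not given in the sources used here. Symbols were matched through GENCODE M21 for 48970 of 49315 identifiers, and 0 columns were set aside.

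The tests used edgeR 4.0.16 (R 4.3.3): filterByExpr, TMM scaling, glmQLFit and glmQLFTest on genotype, with Benjamini-Hochberg adjustment over 17163 genes and a threshold of 0.05. The steps were tested on simulated data. Paralog ratios, from counts per exon base, were compared by exact two-sided permutation tests of library means. Alternatives were other scalings, DESeq2 1.42.0, limma-voom (limma 3.58.1), other filters, an offset on gene length, the foregut marker level as covariate, a replicate block, and leaving out each library. The 2 genotypes came from the labels, and all libraries differed by more than sampling noise.

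The members and gene lists were chosen with earlier results of these data known. Values per library are given for members past the test with a log2 fold change of 0.5 or more in size, for members of paralog pairs and for the most abundant member of each role. From the list of other sarcomere genes, the 3 largest rises and 3 largest falls among genes past the test, at a mean of at least 5 CPM, are named. Promoter sequences are RefSeq's for GRCm38.p6.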

Additional observations from a re-analysis of the deposited data

Results flagged for a closer look

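Lmod2 was at 24.3 CPM in Tbx20EH1Mut replicate 1, set apart below the other three Tbx20EH1Mut libraries, which lay between 37.6 and 39.8 CPM. The gap to its nearest neighbour was 0.858 of the range of the 4 libraries, above Dixon's 95% critical value for 4 samples. Of the 86 groups of 4 libraries looked at in this way, 1 was set apart, and chance alone does so in about 1 in 20. Without that library the fall in Lmod2 remained past the test.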

How the results depend on the processing

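The count of 10 members past the test, 3 higher and 7 lower, was 9 to 15 under 10 other settings with all libraries, where 15.4% to 36.8% of all genes tested were called, and 5 to 13 without 1 library at a time, where 17.0% to 37.3% were called, with 2 to 3 members higher, 3 to 10 lower and 4 to 11 with a change of 0.5 or more in size. The lowest counts came without Tbx20EH1Mut replicate 4 (5 members, 17.3% of all genes) and wild-type replicate 3 (6 members, 17.4% of all genes). More members were lower with library size alone (12, with 28.2% of all genes called, the additions being Actc1, Mybpc3, Nebl, Csrp3 and Mypn) and by DESeq2 (11, with 36.8% of all genes called and with Actc1, Ttn, Mybpc3 and Mypn added). With the foregut marker level as covariate, 8 members were higher and 14 passed with a change of 0.5 or more in size. Smyd1, Fhl2 and Ankrd1 kept their calls in those 10 settings and the 8 fits without a library. The cause of these shifts was not tested.

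The replicate numbers were not taken to pair the libraries, since same-numbered wild-type and Tbx20EH1Mut libraries deviated with correlations of -0.27, 0.34, 0.060 and 0.060. With the replicate block 9 members passed, 3 higher and 6 lower, 8 of them at 0.5 or more, against 23.0% of all genes, Actn2 was at -0.49 with an adjusted p of 0.0595 by edgeR, and Acta1 was at -0.027. The ratio of Lmod3 to Lmod2 has a smallest p of 0.125 in an exact sign-flip test over pairs.

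No member called in the analysis of all libraries changed direction under any of these settings or the one added. Among the others, the direction turned with library size alone (Tnnt2 -0.040, Tnni1 -0.0031 and Acta1 -0.074), upper-quartile scaling (Tpm2 0.039, Pdlim5 0.023, Cryab 0.034 and Trim63 0.055), the offset on gene length (Acta1 -0.18, Ldb3 0.0018 and Pdlim5 0.037), limma-voom (Acta1 -0.025), no filter (Acta1 -0.0076) and the foregut covariate (Tnni3 0.96, Myom2 0.46, Csrp3 0.047, Tcap 0.73, Pdlim5 0.15, Xirp2 0.25, Cryab 0.41 and Trim63 0.46). It also turned without wild-type replicate 2 and Tbx20EH1Mut replicate 3, a setting chosen after seeing the data (Tnnt2 -0.15, Tnni1 -0.25, Tnnc1 -0.021, Tpm1 -0.12, Acta1 -0.16 and Des -0.0046). When single libraries were left out, log2 fold changes spanned 0 for Tnnt2 (-0.070 to 0.11), Tnni1 (-0.10 to 0.23), Tnni3 (-0.39 to 0.039), Tpm1 (-0.025 to 0.20), Tpm2 (-0.11 to 0.023), Acta1 (-0.15 to 0.12), Myom2 (-0.71 to 0.18), Ldb3 (-0.15 to 0.00051), Tcap (-0.37 to 0.051), Pdlim5 (-0.12 to 0.051), Xirp2 (-1.46 to 0.17), Cryab (-0.14 to 0.079) and Trim63 (-0.16 to 0.079). Log2 ratio differences spanned 0 for Myom2 over Myom1 (-0.49 to 0.33), Tpm2 over Tpm1 (-0.25 to 0.0062) and Trim63 over Trim55 (-0.0097 to 0.21). Fhod3, Nebl, Csrp3 and Synpo2l each passed the test without 1 library. A filter of at least 10 counts in every library left 35 members to test, without Myom2 and Xirp2. Depth limits Myom2, Xirp2 and Mypn, which had 0 to 125 counts a library.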

Other observations

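Tnni2 and Tnnt3, the fast skeletal troponins that were lower in Tbx20EH1Mut hearts, lie on chromosome 7, at 142441808 to 142444410 and 142498836 to 142516009 in GRCm38. This interval was looked at after their values were seen. Lsp1, which lies between them, had 49.5 ± 8.40 CPM (wild-type) against 30.9 ± 4.45 CPM (Tbx20EH1Mut) (SD, n = 4), with a log2 fold change of -0.68 ± 0.15 (adjusted p = 0.00952, edgeR). Beyond Tnnt3, Mrpl23 had a log2 fold change of 0.31 ± 0.14 (adjusted p = 0.112, edgeR). The imprinted genes H19 and Igf2, farther along, were at -0.49 ± 0.14 and -0.66 ± 0.17 (adjusted p of 0.0243 and 0.0171, edgeR), and Ctsd, on the other side, was at 0.76 ± 0.25 (adjusted p = 0.0459, edgeR). Prr33, which overlaps Tnnt3 on the opposite strand, and Igf2os were at -1.65 ± 0.49 and -1.30 ± 0.16 (adjusted p of 0.0312 and 0.000601, edgeR). Syt8, Gm33148 and Mir483 did not pass, at -0.52, -0.090 and -1.59 (adjusted p of 0.453, 0.818 and 0.188, edgeR).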
